A study of Mus musculus with 9 samples.

Results

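The aminoacyl-tRNA synthetases, the enzymes that attach each amino acid to its transfer RNA (tRNA), were followed in mouse long-term haematopoietic stem cells (LT-HSCs). Members were the rows whose symbol is a 1-letter amino acid code followed by "ars", with or without a final 1 or 2, together with Eprs, Farsa and Farsb. This gave 37 genes of 21939 in the table, of which 17 with a symbol ending in 2 were taken as mitochondrial and the other 20 as cytosolic. The rule uses symbols only, but the set was proposed with earlier results of these data known. The study compared LT-HSCs, sorted from C57BL/6 bone marrow as Lin-, Sca1+, cKit+, CD34- and Flt3- cells, in 3 groups of 3 libraries each. Young cells came from mice 10 to 16 weeks old and aged cells from mice over 80 weeks old, and the third group, aged+Ri, held aged cells given 100 µM of the RhoA inhibitor Rhosin (RhoA is a small GTPase that acts on the cytoskeleton). Cells of all groups, the controls included, spent 16 h in a balanced salt solution (HBSS) with 10% serum and 1% antibiotics at 37 °C, 3% oxygen and 5% carbon dioxide before RNA was taken. The design text names 3 biological replicates a condition and the labels do not say how many mice each library holds, so that p-values measure the spread between these samples.

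Each cell needs a full set of synthetases for protein synthesis in the cytosol and another for the tRNAs that the mitochondrial genome encodes, and both sets are encoded in the nucleus. Most amino acids have a separate gene for each compartment; Gars and Kars encode enzymes for both, and mitochondrial glutaminyl-tRNA is made by amidation of glutamyl-tRNA. The enzymes fall into class I and class II by the fold of their catalytic domain, and several cytosolic ones are bound in a multisynthetase complex. When a tRNA lacks its amino acid, the kinase GCN2 (Eif2ak4) phosphorylates eIF2 alpha, translation of the transcription factor ATF4 increases, and cytosolic synthetase genes are among the genes that ATF4 is known to activate. Blood stem cells are known for a low rate of protein synthesis compared with their progeny.

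The libraries held between 34358101 and 72503142 estimated counts, and all 37 members passed the filter on low counts, as did 15127 of the 21939 genes. Genes with a count numbered 20129 to 21213 in young, 15024 to 17987 in aged and 15117 to 16333 in aged+Ri libraries, and the part of this difference in the comparisons with young cells was not tested. All 13 stem cell markers examined were above 3 counts in every library, which is 0.041 to 0.087 CPM (counts scaled to library size). So were 4 of 14 myeloid and 5 of 12 lymphoid markers. RNA of Cd34, whose protein the sort required to be absent, was at 7.96 to 95.7 CPM. That of Flt3, gated in the same way, was at 21.8 CPM in young 3 and at 0.06 to 4.52 in the other libraries. Over 14 myeloid markers the sum was 1140 to 3947 CPM in young, 481 to 10737 in aged and 73.8 to 126 in aged+Ri libraries. The value of 10737 was that of aged 3, against 639 in aged 1 and 481 in aged 2. No myeloid marker was at 0 in a whole group. For 12 lymphoid markers the sums were 259.7 to 13665, 128 to 859.7 and 76.6 to 162 in the same order. The highest value was carried by Iglc2 in young 1 (13370.0 CPM). Young 3 was next at 2069.5 CPM, with Iglc2 at 164.9. Sums of 8 erythroid and megakaryocyte markers were 129.8 to 576, 102 to 460.1 and 559 to 969, with 1 marker at 0 in every aged+Ri library. Hba-a1 made up most of the last sum, at 620.4, 428 and 899.7 CPM, while Pf4 was at 5.28, 107 and 55.8 in aged+Ri and 55.5, 409 and 439 in aged libraries. In 6 mast cell and basophil markers the sums were 143 to 265, 155 to 403 and 63.8 to 132, with Prss34 at 0 in every aged+Ri library. The 13 mitochondrially encoded genes took 4.14% to 4.68% of counts in young, 2.57% to 3.54% in aged and 1.57% to 2.56% in aged+Ri libraries. In bulk samples fewer cells of a type and less RNA per cell cannot be told apart, and the part of these lists in the results on synthetases was not tested. Sequencing batches, as the labels give them, held aged 1 and aged+Ri 1 (batch 1), young 2, aged 2, aged+Ri 2 and aged+Ri 3 (batch 2) and young 3 and aged 3 (batch 3), with young 1 sequenced in batches 1 and 3.

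A pair of libraries stood apart for these genes. Library 1 of the aged+Ri group held the highest level of its group in 16 of the 20 cytosolic members and the highest of all 9 libraries in 11. Its summed cytosolic level was 3103 CPM, against 1668 and 1828 in the other aged+Ri libraries. Its summed stem cell markers were the lowest of the 9 libraries at 1912 CPM. Of these markers Kit was the lowest of the 9 libraries there, at 87.3 CPM, and Procr the highest, at 409.3. Library 3 of the young group was set apart by Lars2, which encodes mitochondrial leucyl-tRNA synthetase, at 463.5 CPM against 35.1 to 59.7 in the other 8 libraries. Its summed mitochondrial level was 719.5 CPM with Lars2 and 256 without.

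Per kilobase of annotated exon, cytosolic synthetases were mostly the more abundant set. The median over the 20 cytosolic members was 9.18 CPM per kilobase in young, 10.96 in aged and 13.5 in aged+Ri cells, against 1.72, 1.95 and 1.85 over the 17 mitochondrial members. The highest cytosolic level was that of Nars (asparaginyl-tRNA synthetase) in young cells at 34.7 CPM per kilobase, of Dars (aspartyl) in aged cells at 51.7 and again of Nars in aged+Ri cells at 78.3. Among mitochondrial members it was Lars2 at 17.0 in young cells, carried by library 3, and Rars2 (arginyl) at 21.4 in aged and 22.04 in aged+Ri cells. For 9 of the 14 amino acids with a gene for each compartment the cytosolic gene was the higher per kilobase in 9 of 9 libraries. The exceptions were histidine in 1 library, leucine, arginine and tryptophan in 2 libraries each, and tyrosine, where Yars was above Yars2 in 5 of 9 libraries.

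**Figure D1:**
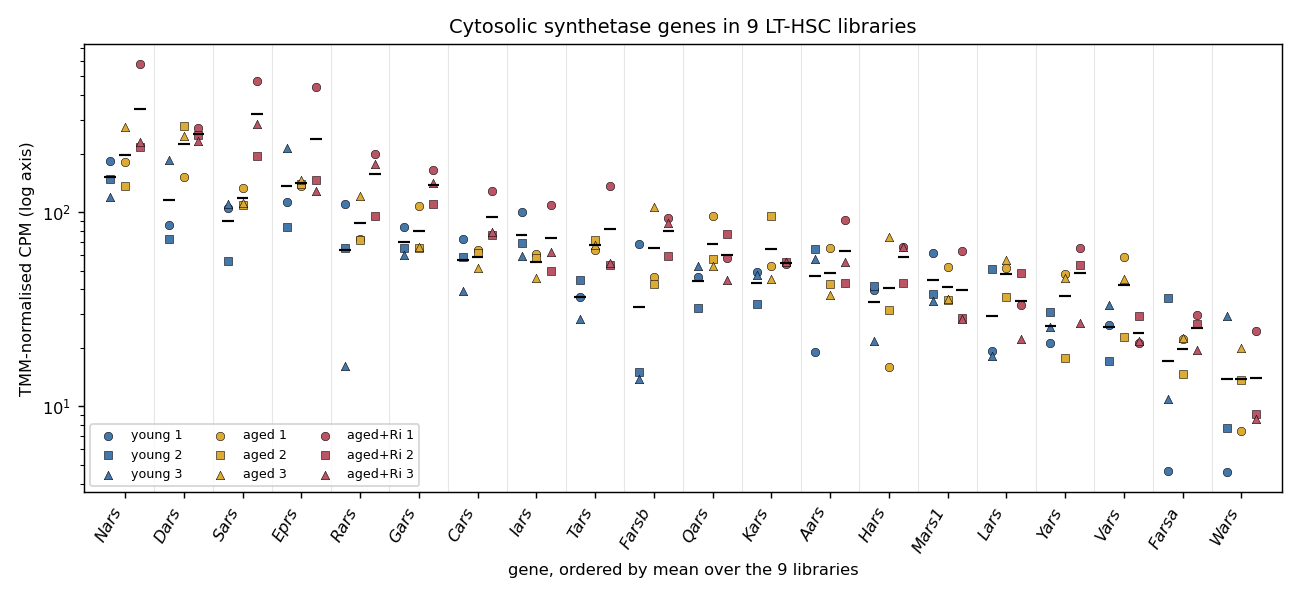
Normalised CPM (log axis) of the 20 cytosolic synthetase genes, ordered by their mean; each point is 1 library, coloured by group and shaped by replicate, and black bars are group means (n = 3). The aged+Ri points of Sars (194 to 476 CPM) lie above all young and aged points, and aged+Ri 1 (circles) is the highest library in 11 genes.

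**Figure D2:**
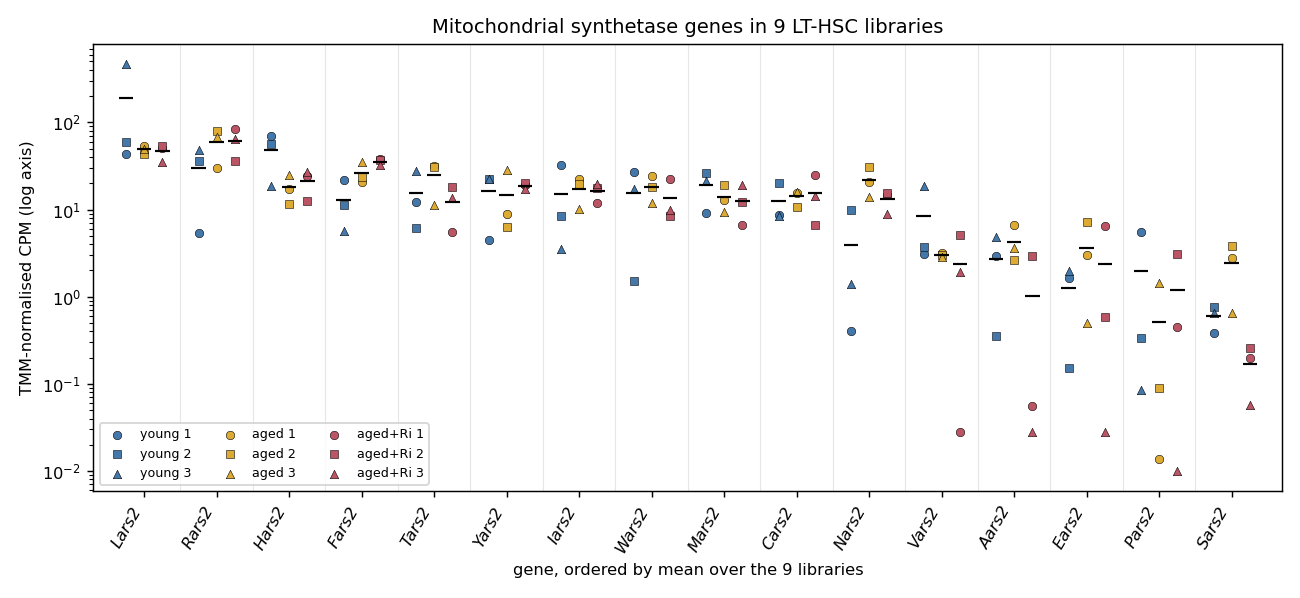
Normalised CPM (log axis) of 16 of the 17 mitochondrial synthetase genes in the same 9 libraries, drawn the same way; the single value of 0 (Pars2 in aged+Ri 3) is placed at 0.01. Lars2 in young 3 stands at 463.5 CPM, and the genes at the right scatter over several orders within a group.

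Replicate spread differed between the sets. The median coefficient of variation over members was 32.5%, 30.4% and 36.3% for cytosolic genes in young, aged and aged+Ri cells, and 77.3%, 39.0% and 49.7% for mitochondrial genes. Several mitochondrial members had few counts in some libraries. Sars2, for mitochondrial seryl-tRNA synthetase, had 72, 457 and 24 counts over the 3 libraries of the young, aged and aged+Ri groups, and Pars2 (prolyl) had 289, 96 and 196. In single libraries Pars2 was at 5.52, 0.33 and 0.09 CPM in young and 0.01, 0.09 and 1.43 in aged cells. In aged+Ri libraries it was at 0.45, 3.11 and 0 CPM. The 0 counts in aged+Ri 3 allow up to 0.078 CPM (3 counts, counting error only).

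Between aged cells with and without Rhosin, no synthetase passed the test. The fitted log2 change was positive in 15 of 20 cytosolic members with a median of 0.37 (12 of 20 and 0.06 without aged+Ri 1), and in 7 of 17 mitochondrial members with a median of -0.07, beside a median of -0.06 over all genes tested. By edgeR's quasi-likelihood test 0 of 37 members were called at an adjusted p under 0.05, as were 0% of all genes. Unadjusted p was under 0.05 in 3 members (9.14% of all genes), and DESeq2 called Sars and Sars2 (2.12% of all genes) while limma-voom called none (0.364% of all genes). The 3 aged+Ri libraries lay above all aged libraries in 3 members (7.87% of all genes) and below them in 1 (8.66% of all genes).

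The clearest member was Sars, which encodes cytosolic seryl-tRNA synthetase and lies on the minus strand at chr3:108424865-108445209 (GRCm38), where no other gene shares its exons. Sars was at 105, 56.0 and 109.6 CPM in young libraries 1 to 3, at 134, 109 and 112 in aged and at 476, 194 and 286 in aged+Ri. Every aged+Ri library was above every untreated one, and library 1 was the highest. Against aged cells Sars had a log2 change of 1.43 ± 0.38 (SE), or 2.698-fold, with an edgeR adjusted p = 0.335 (DESeq2 adjusted p = 0.048).

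Gars, for glycyl-tRNA synthetase of both compartments (chr6:55038007-55079500, plus strand), was at 84.2, 65.5 and 59.96 CPM in young, 108, 65.6 and 66.3 in aged and 165, 109.6 and 142 in aged+Ri libraries. The aged+Ri values lay above the others, the lowest of them next to aged 1. Its log2 change against aged cells was 0.80 ± 0.34 (edgeR adjusted p = 0.506). Cars, for cysteinyl-tRNA synthetase, likewise did not overlap between the groups, at 63.7, 61.5 and 51.8 CPM in aged and 128, 76.6 and 79.2 in aged+Ri libraries (log2 change 0.68 ± 0.38, edgeR adjusted p = 0.623). It shares 3.21% of its exon bases with a pseudogene on the other strand, and the strand setting of the counting was not given in the sources used here.

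Nars and Eprs were near the aged level in the other aged+Ri libraries. Nars was at 182, 137 and 274 CPM in aged and at 577, 217 and 229.5 in aged+Ri libraries, with a log2 change of 0.79 ± 0.41 that was 0.17 without aged+Ri 1. Eprs, the fused glutamyl- and prolyl-tRNA synthetase of the complex, was at 136, 139 and 147 against 443, 146 and 129 CPM, and its log2 change of 0.77 ± 0.47 became -0.04 without that library. Rars, for arginyl-tRNA synthetase, was at 72.7, 71.8 and 121 in aged and at 198.5, 96.1 and 177 CPM in aged+Ri libraries, with a log2 change of 0.83 ± 0.55. Groups overlapped in these 3 genes, and their edgeR adjusted p-values were 0.595, 0.679 and 0.716.

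Some members lay in the other direction. Vars, for valyl-tRNA synthetase, was at 59.1, 22.7 and 45.3 CPM in aged and 21.1, 29.0 and 21.7 in aged+Ri libraries (log2 change -0.82 ± 0.51, edgeR adjusted p = 0.68). Sars2 was at 2.79, 3.83 and 0.65 CPM in aged and at 0.20, 0.26 and 0.06 in aged+Ri libraries, with young libraries at 0.38, 0.77 and 0.66. The 2 groups of aged cells did not overlap in Sars2, its log2 change was -3.80 ± 1.51 (edgeR adjusted p = 0.473, DESeq2 adjusted p = 0.0248), and it rests on the 24 counts of the aged+Ri group. Serine was thus the amino acid whose cytosolic and mitochondrial genes differed most in fitted change, by 5.23 on the log2 scale.

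The cytosolic median against aged cells also differed between batches. Within batch 1 (1 library against 1) it was 0.83 with 17 of 20 positive, and within batch 2 (2 libraries against 1) 0.17 with 12 of 20. The only aged+Ri library of batch 1 was aged+Ri 1, so that batch and library cannot be told apart there. Mitochondrial medians within batches 1 and 2 were -0.05 and -0.32. Sars kept a positive change within each, of 1.83 and 1.11, and Gars of 0.62 and 0.93.

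**Figure D3:**
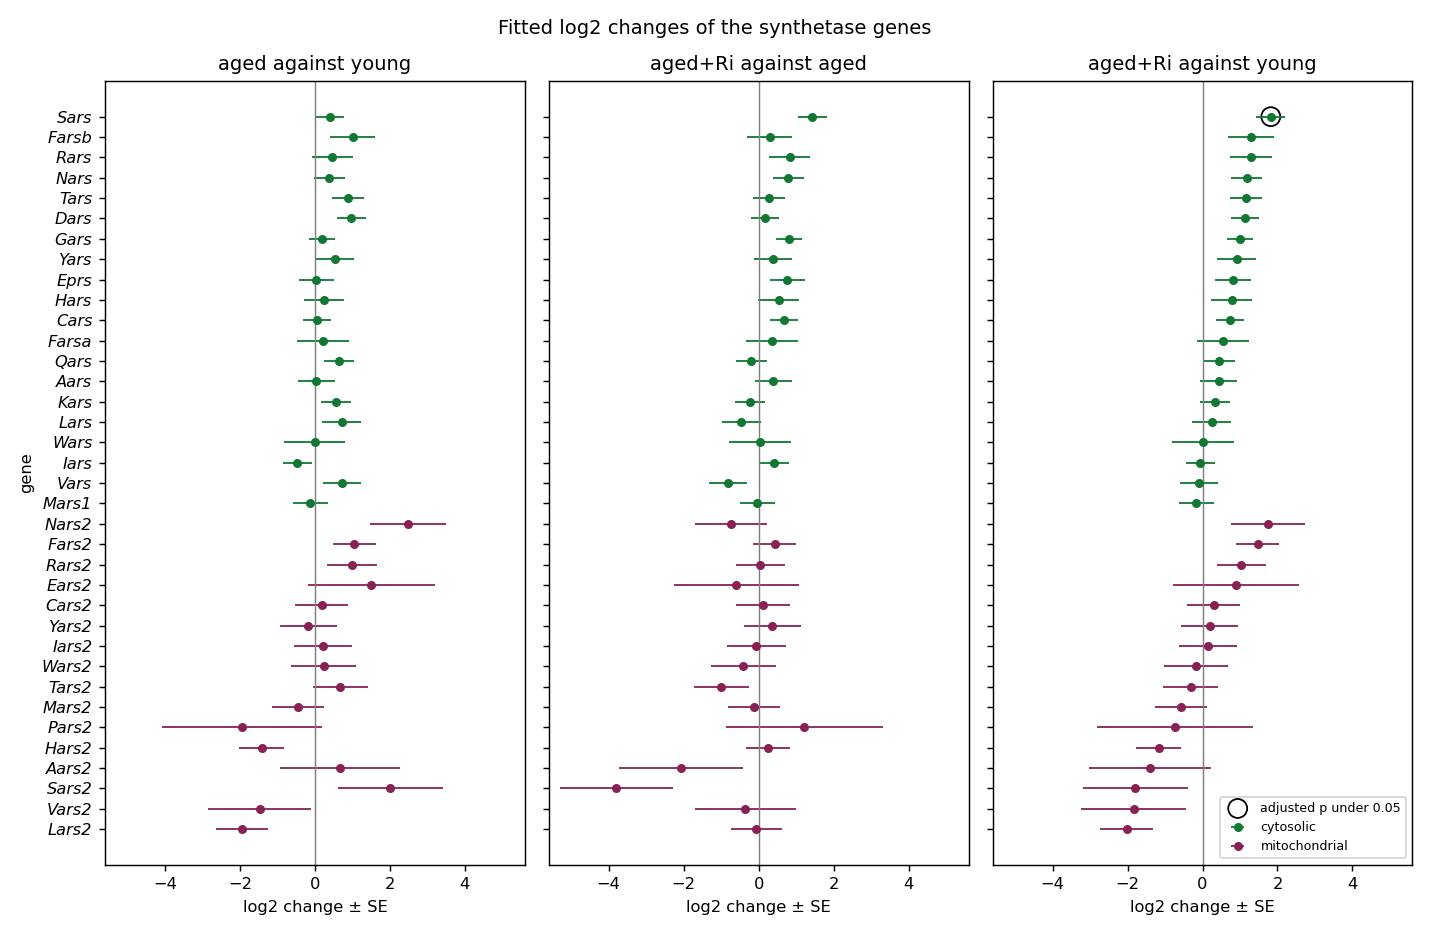
Fitted log2 change (first group minus second, bars are SE) of 36 of the 37 synthetase genes in the 3 comparisons, cytosolic genes green and mitochondrial genes purple, ordered by the aged+Ri against young panel. The single ringed point (adjusted p under 0.05) is Sars in aged+Ri against young, at 1.82, and 17 of 20 cytosolic genes lie above 0 there against 7 of the 16 mitochondrial genes drawn.

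Against young cells, aged cells with Rhosin held more RNA of 1 synthetase by the test: Sars rose 3.54-fold, a log2 change of 1.82 ± 0.39 (edgeR adjusted p = 0.0384), and was the only member called, beside 1.45% of all genes. Unadjusted p was under 0.05 in 8 members, against 23.4% of all genes. Cytosolic members had a median log2 change of 0.76 with 17 of 20 positive, and mitochondrial members -0.32 with 7 of 17, beside -0.24 over all genes. The 3 aged+Ri libraries lay above all young libraries in 9 members, 8 of them cytosolic (12.4% of all genes), and below them in 1 (19.9% of all genes). Without aged+Ri 1 the change of Sars was 1.45 (edgeR adjusted p = 0.163), and without aged+Ri 3 it was 1.91 (adjusted p = 0.111). The call was also lost on leaving out young 1, young 2 or any 1 aged library (adjusted p of 0.0508 to 0.0758), where leaving out a library also changed the number of genes tested and their median, and it was kept without young 3 or aged+Ri 2.

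The members next in order did not pass. Dars, of the multisynthetase complex, was at 86.2, 73.1 and 185 CPM in young, 152, 276 and 248 in aged and 271.5, 251 and 232 in aged+Ri libraries. Both aged groups lay mostly above the young one, and the log2 change of aged+Ri against young was 1.13 ± 0.38 (edgeR adjusted p = 0.115; 0.0247 without young 3). Tars, for threonyl-tRNA synthetase (chr15:11382301-11399665, minus strand), was at 36.7, 45.0 and 28.1 CPM in young, 63.7, 71.7 and 67.6 in aged and 136, 53.2 and 55.0 in aged+Ri libraries. It was higher in every aged and every aged+Ri library than in any young one. The fitted log2 change was 0.89 ± 0.43 for aged and 1.16 ± 0.43 for aged+Ri against young (edgeR adjusted p = 0.325 and 0.143). Aged+Ri 1 was the highest library in Tars, and aged+Ri 2 and aged+Ri 3 lay below every aged library. On leaving out 1 library the change of Tars in aged+Ri against young was 0.60 at the lowest.

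For aged+Ri against young, the fitted log2 change was 0.99 ± 0.35 in Gars, 1.17 ± 0.41 in Nars and 1.29 ± 0.56 in Rars (edgeR adjusted p = 0.123, 0.124 and 0.185). On leaving out 1 library these changes were 0.89, 0.60 and 0.85 at the lowest. Young libraries held Nars at 184, 149 and 120.3 CPM and Rars at 111, 65.4 and 16.2. Fars2, for mitochondrial phenylalanyl-tRNA synthetase, was at 21.6, 11.2 and 5.62 CPM in young, 20.6, 23.9 and 35.1 in aged and 37.5, 36.8 and 32.4 in aged+Ri libraries. All aged+Ri libraries were above the young ones (log2 change 1.47 ± 0.58, edgeR adjusted p = 0.156), and 10.7% of the exon bases of Fars2 are shared with genes on the other strand. Lars2 had a log2 change of -2.02 ± 0.70 (edgeR adjusted p = 0.123), which was -0.13 without young 3.

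Aged against young cells, without inhibitor, gave no called member. Cytosolic members had a median log2 change of 0.39 with 17 of 20 positive, mitochondrial members 0.21 with 10 of 17, and all genes -0.13. By edgeR's quasi-likelihood test 0 of 37 members were called, beside 0.0331% of all genes; DESeq2 and limma-voom also called 0, beside 4.92% and 0.119% of all genes. Unadjusted p was under 0.05 in 4 members, Lars2, Dars, Nars2 and Hars2 (16.2% of all genes). Aged libraries lay above all young ones in 2 members, Tars and Nars2 (8.58% of all genes), and below them in 0 (16.1% of all genes).

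Nars2, for mitochondrial asparaginyl-tRNA synthetase, was at 0.40, 9.92 and 1.40 CPM in young, 20.9, 30.9 and 13.9 in aged and 14.5, 15.7 and 8.95 in aged+Ri libraries. The coefficient of variation was 133.9% in young and 38.95% in aged libraries, the groups did not overlap, and the log2 change of 2.49 ± 1.01 had an edgeR adjusted p = 0.262. Hars2, for mitochondrial histidyl-tRNA synthetase, was at 69.8, 55.8 and 18.4 CPM in young and 17.3, 11.6 and 25.0 in aged libraries, where young 3 lay within the aged range (log2 change -1.42 ± 0.59, edgeR adjusted p = 0.269). Hars and Hars2 share exon bases on opposite strands, 7.97% of those of Hars and 4.56% of those of Hars2.

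Dars, whose values are given above, had a log2 change of 0.97 ± 0.38 (edgeR adjusted p = 0.251). Farsb, the beta subunit of cytosolic phenylalanyl-tRNA synthetase, was at 68.7, 15.0 and 13.9 CPM in young and 46.3, 42.6 and 106.5 in aged libraries (log2 change 1.00 ± 0.61, edgeR adjusted p = 0.423). The catalytic alpha subunit, Farsa, was at 4.65, 36.04 and 10.9 and at 22.2, 14.7 and 22.6 CPM. Groups overlapped in Dars, Farsb and Farsa. The fitted log2 change was 1.05 ± 0.57 in Fars2 and -1.95 ± 0.70 in Lars2 (edgeR adjusted p = 0.37 and 0.228), and -0.06 in Lars2 without young 3.

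**Figure D4:**
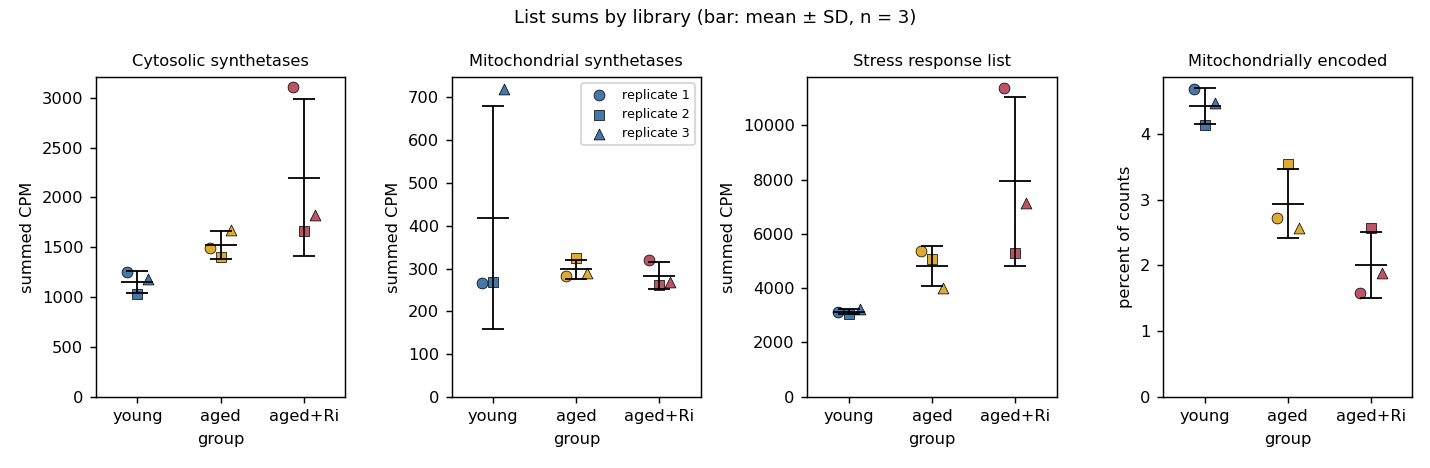
Summed CPM of cytosolic synthetases, mitochondrial synthetases and 31 integrated stress response genes, and the percent of counts from 13 mitochondrially encoded genes, by group; points are libraries and bars are mean ± SD (n = 3), with axes from 0. Cytosolic sums lie at 1033 to 1253 CPM in young, 1400 to 1675 in aged and 1668 to 3103 in aged+Ri libraries, with aged+Ri 1 the highest of the 9 in the cytosolic and stress response panels.

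As a sum, cytosolic synthetases stood at 1154 ± 112 CPM (SD, n = 3) in young, 1521 ± 140 in aged and 2200 ± 787 in aged+Ri cells. Mitochondrial synthetases without Lars2 stood at 229.7 ± 23.8, 249 ± 27.1 and 237 ± 29.5 CPM. The cytosolic sum was 1.64 to 4.69 times the full mitochondrial sum in young and 4.33 to 5.79 times in aged libraries. In aged+Ri libraries it was 6.38 to 9.73 times, so that no aged+Ri library overlapped the others in this ratio. The lowest ratio was that of young 3, whose mitochondrial sum was 719.5 CPM with Lars2 and 256 without. By group, the percent of counts from mitochondrially encoded genes ran in the opposite order, as given above. The part of that percent in the ratio was not tested.

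Within the cytosolic set, fitted changes were counted by class, complex and known ATF4 targets. All 10 class II members were positive in aged+Ri against young (median log2 change 1.06), among them Sars, Gars, Nars, Dars and Tars, and 6 of the 9 class I members were (median 0.25). Against aged cells 9 of 10 class II members were positive with a median of 0.37, and 5 of 9 class I members with a median of 0.03. Eprs joins enzymes of both classes and was counted in neither. The 8 enzymes of the multisynthetase complex had 4 positive members and a median of 0.06 against aged cells, and the 12 outside it 11 positive members and a median of 0.39. A list of 13 cytosolic synthetases known as ATF4 targets had a median of 0.39 with 10 positive, and the other 7 cytosolic members 0.30 with 5 positive. Against young cells these medians were 0.74 and 0.77. These are counts of fitted changes, without a test of the differences between subsets. The subsets share members, and the median of the whole cytosolic set against aged cells fell from 0.37 to 0.06 without aged+Ri 1.

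The split between compartments was also read amino acid by amino acid. Of 14 amino acids with 2 genes, the cytosolic gene had the more positive fitted change in 11 for aged+Ri against aged (median difference 0.46 on the log2 scale), in 12 for aged+Ri against young (1.10) and in 7 for aged against young (0.04). Against aged cells leucine and valine were among the exceptions, by -0.40 and -0.46. Against young cells they were isoleucine and asparagine, by -0.20 and -0.57. The widest gaps against aged cells were those of serine (5.23) and alanine (2.46). Their mitochondrial genes, Sars2 and Aars2, had 24 and 174 counts over the aged+Ri group. Without aged+Ri 1 the median of the whole cytosolic set against aged cells was 0.06. The comparisons with aged+Ri share those libraries and are given side by side.

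Among genes that work beside the synthetases, the list of 15 charging accessory genes held 0 called members in each comparison by edgeR, with unadjusted p under 0.05 in 2, 0 and 4 (16.2%, 9.14% and 23.4% of all genes) and with median log2 changes of 0.23 for aged against young, 0.09 for aged+Ri against aged and 0.32 for aged+Ri against young. DESeq2 called Dtd1 in aged against young (4.92% of all genes), and Aimp2 and Eef1b2 in aged+Ri against young (12.1% of all genes), where limma-voom called Eef1b2 (4.26% of all genes). Aimp2, a scaffold of the multisynthetase complex, was at 9.67, 14.5 and 9.70 CPM in young, 18.8, 18.6 and 25.9 in aged and 60.9, 18.3 and 32.8 in aged+Ri libraries (log2 change against young 1.73 ± 0.58, edgeR adjusted p = 0.115). Eef1b2, an exchange factor for the elongation factor that delivers charged tRNA, was at 1828, 1690.0 and 808 CPM in young and 523, 762 and 607 in aged+Ri libraries (log2 change -1.19 ± 0.37, edgeR adjusted p = 0.0964). Dtd1, which removes D-amino acids from tRNA, was at 72.0, 83.8 and 41.2 in young and 171, 155 and 196.5 CPM in aged libraries (log2 change 1.41 ± 0.39, edgeR adjusted p = 0.179).

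Of the 7 mitochondrial accessory genes 0 were called in any comparison by edgeR, DESeq2 or limma-voom, unadjusted p was under 0.05 in 2, 0 and 1 (16.2%, 9.14% and 23.4% of all genes), and their medians were 1.21, -0.36 and 0.52 in the same order. Gatb, a subunit of the amidotransferase that completes mitochondrial glutaminyl-tRNA, was at 0.47, 0.23 and 2.22 CPM in young and 25.4, 8.08 and 10.1 in aged libraries, but at 0.03, 9.73 and 17.5 in aged+Ri libraries. Its aged libraries lay above the young ones (log2 change 3.90 ± 1.54, edgeR adjusted p = 0.254). Tsfm, a mitochondrial elongation factor, was at 7.56, 11.96 and 4.45 CPM in young and 36.1, 24.7 and 30.9 in aged+Ri libraries (log2 change 1.93 ± 0.72, edgeR adjusted p = 0.141).

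The integrated stress response list of 31 genes, to which ATF4 and many of its known targets belong, was read beside them and holds no synthetase. Against young cells, 4 of 31 genes rose in aged+Ri cells and none fell, with 26 positive and a median log2 change of 1.28 (edgeR's quasi-likelihood test), beside 1.45% called and 42.6% positive over all genes. Asns, which makes asparagine, was at 41.4, 12.8 and 51.1 CPM in young, 152, 145 and 142 in aged and 855, 229 and 398 in aged+Ri libraries. Its groups did not overlap in any comparison, and it rose 14.1-fold against young cells (log2 change 3.82 ± 0.56, edgeR adjusted p = 0.0131).

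Slc3a2, the heavy chain of amino acid transporters, was at 204, 215 and 218 CPM in young, 318, 268 and 218 in aged and 1711, 511 and 635 in aged+Ri libraries, and rose 4.49-fold (edgeR adjusted p = 0.0257). Nupr1, a stress-induced chromatin protein, and Eif4ebp1, an inhibitor of cap-dependent translation, rose 3.18-fold and 3.42-fold against young cells (edgeR adjusted p = 0.0258 and 0.0345). Nupr1 was at 1062, 697.5 and 489 CPM in young, 2449, 2603 and 1479 in aged and 2679, 2051 and 2426 in aged+Ri libraries, so that both aged groups lay above the young one and overlapped each other. Eif4ebp1 was at 283, 239 and 546, at 762, 702 and 628 and at 1626, 739.7 and 1282 CPM, with the aged groups again above the young one and overlapping each other. Against untreated aged cells 22 of 31 were positive with a median of 0.70 and 0 were called by edgeR or limma-voom and 3 by DESeq2 (Mthfd2, Slc3a2 and Slc7a11; 2.12% of all genes), with unadjusted p under 0.05 in 9 (9.14% of all genes). There the fitted log2 change was 1.83 ± 0.40 in Slc3a2 and 1.75 ± 0.52 in Asns (edgeR adjusted p = 0.228 and 0.374). Between aged and young cells, 17 of 31 were positive with a median of 0.34, and 0 were called by edgeR or limma-voom and 3 by DESeq2 (4.92% of all genes), with unadjusted p under 0.05 in 7 (16.2% of all genes). Leaving out 1 library at a time, a setting added after the values were seen, Asns was called against young cells in all 9 fits, and it was the only call of the list without aged+Ri 1, aged+Ri 3 or young 2. The list had 2 calls without young 1 or aged 1, 3 without aged 2, 4 without aged 3 and 6 without young 3 or aged+Ri 2. Without aged+Ri 1 its median was 0.66 against young and 0.10 against aged cells.

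Atf4 itself was at 235, 256 and 322 CPM in young, 295, 154.5 and 207 in aged and 623, 306 and 299 in aged+Ri libraries. The aged+Ri values lay above all aged ones but overlapped young 3, with a log2 change of 0.90 ± 0.36 against aged cells (edgeR adjusted p = 0.47). Ddit3, which encodes the stress factor CHOP, was at 145, 152 and 512, at 286.5, 289.8 and 338 and at 1103, 229.1 and 638 CPM, with overlapping groups. It lies beside Mars1, and the genes share exon bases on opposite strands, 1.99% of those of Mars1. Eif2ak4 (GCN2) was at 66.3, 60.7 and 32.1 CPM in young, 25.5, 28.9 and 5.13 in aged and 17.2, 25.5 and 24.8 in aged+Ri libraries. All aged and aged+Ri libraries were below the young ones (log2 change -1.42 ± 0.62 for aged and -1.24 ± 0.61 for aged+Ri, edgeR adjusted p = 0.282 and 0.241).

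Promoters were read for the motif TGATGNAA, the C/EBP-ATF response element to which ATF4 dimers are known to bind. RefSeq promoters of 300 bases (250 before and 50 after the start, GRCm38.p6) were at hand for 27 of the 37 members. The motif stood on either strand in 5 of 13 cytosolic members (38.5%), Aars, Gars, Iars, Tars and Yars, and in 0 of 14 mitochondrial members. It stood in 3.97% of 32851 promoters. A member was counted if any promoter of its gene matched, while that share counts single promoters, so the percentages are not on the same unit. The windows below end at the base before the start and are shown for the members with a match upstream of it, and for Sars, the called member, which had no match; capitals mark the match.
Aars, chr8:111033710-111033841, plus strand: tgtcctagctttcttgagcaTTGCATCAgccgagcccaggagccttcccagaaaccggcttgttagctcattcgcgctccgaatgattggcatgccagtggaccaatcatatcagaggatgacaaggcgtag
Gars, chr6:55037891-55038000, plus strand: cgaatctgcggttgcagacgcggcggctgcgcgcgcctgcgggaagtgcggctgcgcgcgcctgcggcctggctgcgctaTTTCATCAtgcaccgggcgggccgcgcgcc
Tars, chr15:11399659-11399768, minus strand: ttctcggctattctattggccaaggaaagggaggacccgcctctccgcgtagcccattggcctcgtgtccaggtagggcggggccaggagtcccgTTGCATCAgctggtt
Sars, chr3:108445260-108445369, minus strand: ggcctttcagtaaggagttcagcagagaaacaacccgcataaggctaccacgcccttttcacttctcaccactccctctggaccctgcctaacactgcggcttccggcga
All 3 matches read on the strand opposite to the gene. They lie from -112 to -105 in Aars, from -30 to -23 in Gars and from -15 to -8 in Tars, counted from the start. In Aars another match lies after the start, as do those of Iars and Yars.

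Gars and Tars are described above. Of the other members with the motif, Aars was at 65.2, 42.7 and 37.2 CPM in aged and 91.6, 43.1 and 55.4 in aged+Ri libraries, Iars at 61.1, 58.1 and 46.0 and at 108, 49.6 and 62.0, and Yars at 47.9, 17.7 and 46.0 and at 65.5, 53.7 and 26.7. Groups overlapped in these 3, and aged+Ri 1 was the highest library of the 6 in each. Aars shares 15.1% of its exon bases with other genes. The cAMP response element TGACGTCA stood in 0 of the 27 members and 1.79% of all promoters. The E-box CACGTG stood in 5 of the 27 members (18.5%; Aars, Ears2, Farsb, Iars and Tars) and 7.15% of all promoters. Members were again counted by gene. No match says only that these letters are not in the window.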

How the data were processed

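RNA-seq was available for 9 libraries (SMART-Seq v4 and Nextera XT, per the labels). The deposited table holds estimated counts, of which 71.6% to 80.9% per library are whole within 0.005; per the submitters' processing notes the authors used STAR 2.7.0 and featureCounts with GRCm38, besides SAMtools 1.14, cutadapt 1.18 and R 4.2.0. How fractions arose is not given in the sources used here. Counts were rounded, filtered by group (filterByExpr), scaled by TMM and fitted in 1 model of group means over 9 libraries by edgeR 4.0.16 (quasi-likelihood, R 4.3.3), adjusted by Benjamini-Hochberg over 15127 genes at 0.05. Levels are TMM-normalised CPM, per kilobase of GENCODE exon union (21446 of 21939 symbols matched). DESeq2 1.42.0, limma 3.58.1 (voom) and other scalings, filters, designs and left-out libraries were alternatives. The fit was also run on simulated counts with changes planted in the aged+Ri group and no batch or outlying library. The outcome of that run is not given here. Fitted changes are given for the 8 members with the smallest p per comparison, and for up to 4 genes of each other list besides Atf4, Ddit3, Asns and Eif2ak4; other members are given by level only, and 1 member enters counts and medians but is not reported by itself here. Tarsl2, an older name of Tars3, was not matched by the rule. Members and lists were chosen with earlier results of these data known.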

Additional observations from a re-analysis of the deposited data

How the results depend on the processing

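Each result was recomputed under up to 19 settings, beside values within batches. The number of genes called in aged against young was 5, and 744 with DESeq2, 18 with limma-voom, 21 with edgeR's newer method, 20 with no filter, 1 with only the compared groups, 358 with young 1 as the only young library and 2 to 80 on leaving out 1 library. For aged+Ri against aged it was 0, and 321, 55, 5, 11 and 2 under the first 5 of these, 5 with batch as a covariate and 0 to 6 on leaving out 1 library; for aged+Ri against young it was 219, and 1829, 644, 463, 57 with only the compared groups, 735 with young 1 only and 18 to 532 on leaving out 1. Synthetases called numbered 2 in aged+Ri against aged with DESeq2 (Sars, Sars2), 2 in both comparisons with young when young 1 was the only young library (Rars2, Nars2, at 5.42 and 0.40 CPM in young 1; this lone sample is assumed to vary like the other groups), 0 in aged+Ri against young with only the compared groups, and 0 to 2 there on leaving out 1 library (Dars beside Sars without young 3). Medians that moved by over the replicate spread were 1.09 for mitochondrial members in aged against young within batch 2, and, in aged+Ri against aged, 0.83 for cytosolic members within batch 1 and -0.32 for mitochondrial members within batch 2 and -0.37 for them without aged 3 (-0.37 to 0.0038 on leaving out 1 library). The cytosolic medians stayed positive under all settings run, at 0.10 to 0.50, 0.06 to 0.83 and 0.48 to 0.96. Sars lay at 1.45 to 2.13 in aged+Ri against young, with edgeR, DESeq2 or limma adjusted p from 0.00241 to 0.163. With young 1 as the only young library Farsb and Lars2 reversed in aged against young (-0.012 and 0.25), as did Lars2 in aged+Ri against young (0.17), and Eprs reversed in aged+Ri against aged without aged+Ri 1 (-0.038; 1.04 at most on leaving out 1 library). The cause of these differences was not tested. Replicate numbers did not pair the samples (9 same-numbered pairs, r of -0.07 to 0.15, 4 over 0.1; 3 of 9 libraries were closest to their own number); with the replicate block 6, 2 and 226 genes were called in the 3 comparisons, and Sars kept its call against young cells (adjusted p = 0.0252). Sars2, Pars2, Aars2, Ears2 and Vars2 each had a library at 2 counts or fewer. Their values varied widely within groups, as for Vars2 at 0.03, 5.08 and 1.92 CPM in aged+Ri libraries, and the cause was not tested.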

Other observations

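Tarsl2, the older symbol of a further cytosolic threonyl-tRNA synthetase gene, is a row of the table that the rule did not take. It was at 0.61, 0.61 and 0.60 CPM in young, 5.57, 2.67 and 3.58 in aged and 0.73, 4.47 and 1.64 in aged+Ri libraries. All aged and all aged+Ri libraries were above the young ones, and the 3 young values were nearly equal. Of its exon bases 1.78% are shared with Tm2d3.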
